A study of Drosophila melanogaster with 16 samples.

Results

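The mitochondrial ribosomal protein genes were all genes of the deposited count table whose symbol starts with mRpL or mRpS followed by a number. The rule found 73 of 16680 genes, 47 for the large subunit and 26 for the small subunit. Of these, 72 had enough reads to be tested, and mRpL53 had 0 reads in all 16 libraries. The rule itself uses the symbol and no measured value.

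The mitochondrial ribosome translates the few messages encoded by mitochondrial DNA, which make core subunits of the respiratory chain and of the ATP synthase. Its ribosomal RNAs are made inside the organelle, but its proteins are encoded in the nucleus, translated in the cytosol and imported. Some of these proteins have counterparts in bacterial ribosomes, and others are specific to mitochondria. In flies Myc is known as an activator of genes for ribosome synthesis, and the enterocytes of the midgut are absorptive cells rich in mitochondria.

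RNA was sequenced from dissected midguts of virgin flies, with 4 libraries in each of 4 groups and 30 guts pooled per library. Control females and control males had the genotype w1118; mex1-GAL4 TS/+, and the other females and males had the genotype mex1TS > MycRNAi GD1419. The mex1 driver is active in enterocytes, so a whole-gut library also holds cells that the driver does not reach, and controls carried the driver without an RNAi line. The labels give no age. Library numbers run from 1 to 16, and each is used below as the number of its library.

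Total counts ranged from 16630050 to 53586401 per library, and the members drew between 29151 and 106562 of them. All 6 enterocyte markers were detected in each group, and their summed level was 2932 to 4089 CPM (counts scaled to a common TMM library size) in controls and 6822 to 10260 CPM in the other libraries. Stem cell and enteroblast markers (6 genes, none at 0 in any group) summed to 51.5 to 119 CPM in controls and 145 to 248 CPM in the others. In bulk RNA, fewer cells of a type and less RNA per cell cannot be told apart. Male library 16 held 25842 reads of 10 testis germline markers, against 0 to 34 reads in each other library, with none of the 10 at 0 in its group. The targeted gene itself (listed as dm) was not lower by test in females (log2 difference −0.59, edgeR adjusted p = 0.0892). In males its estimate was positive and did not pass (0.65, edgeR adjusted p = 0.0619), so the groups are called labelled Myc RNAi. The gene w separated the genotypes, at 10.7 to 17.5 CPM in female and 19.8 to 26.7 CPM in male controls. It was at 305 to 378 CPM in females and 384 to 565 CPM in males labelled Myc RNAi. The source of that difference was not tested.

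Levels differed more between members than between groups. Per kilobase of exon, the mean level over the 16 libraries had a median of 23.1 CPM per kb over the tested members, against 8.04 for all tested genes with a known length and 1195 for the cytosolic ribosomal protein genes. The median was 23.0 CPM per kb for the large subunit and 23.1 for the small subunit. The highest members were mRpL28 (63.9 CPM per kb), mRpL12 (59.2) and mRpL24 (45.7). mRpL28 and mRpL24 have counterparts in the bacterial large subunit, and mRpL12 is the counterpart of the bacterial stalk protein that recruits translation factors. The lowest tested members were mRpS24 (4.04 CPM per kb), mRpS21 (8.89) and mRpL21 (9.78). In every group mRpL28 was the highest and mRpS24 the lowest. The range within a group was 14.2-fold to 18.1-fold.

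Members overlap other genes to different degrees, at low and at high levels. In the annotation, 55.3% of the exon of mRpS24 is covered by TBC1d7 on the other strand and 48.0% of that of mRpS21 by CG8870, while mRpL21 shares no exon bases with another gene. mRpS9, at 38.3 CPM per kb, has 25.1% of its exon covered by ArgRS-m on the other strand, and mRpS14 has 35.8% covered. All 829 exon bases of mRpL53 (gene span on chromosome 2R, 13954195 to 13955664) are shared with exons of CG33155 on the same strand. Whether shared reads were set aside there was not tested. If they were, the mRpL53 count of 0 gives no bound on its level. If they were counted, it allows up to 3 reads per library. In all, 43 members share exon bases with another gene and 30 do not. The 30 gave medians of −0.09 in females, 0.20 in males and 0.35 between control sexes, beside −0.10, 0.23 and 0.38 for all tested members.

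The summed level of the members overlapped between genotypes. It was 1638, 2276, 1572 and 1565 CPM in the female controls, numbered 1 to 4, and, in females of the genotype labelled Myc RNAi (9 to 12), 1813, 1449, 1710 and 1598 CPM. In the male controls, numbered 5 to 8, it was 1486, 1419, 1492 and 1185 CPM, and in the males labelled Myc RNAi, numbered 13 to 16, 1453, 1543, 1428 and 1964 CPM. In each sex the genotypes overlapped. The large subunit held 1.71 to 1.87 times the summed CPM of the small subunit in every library.

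**Figure D1:**
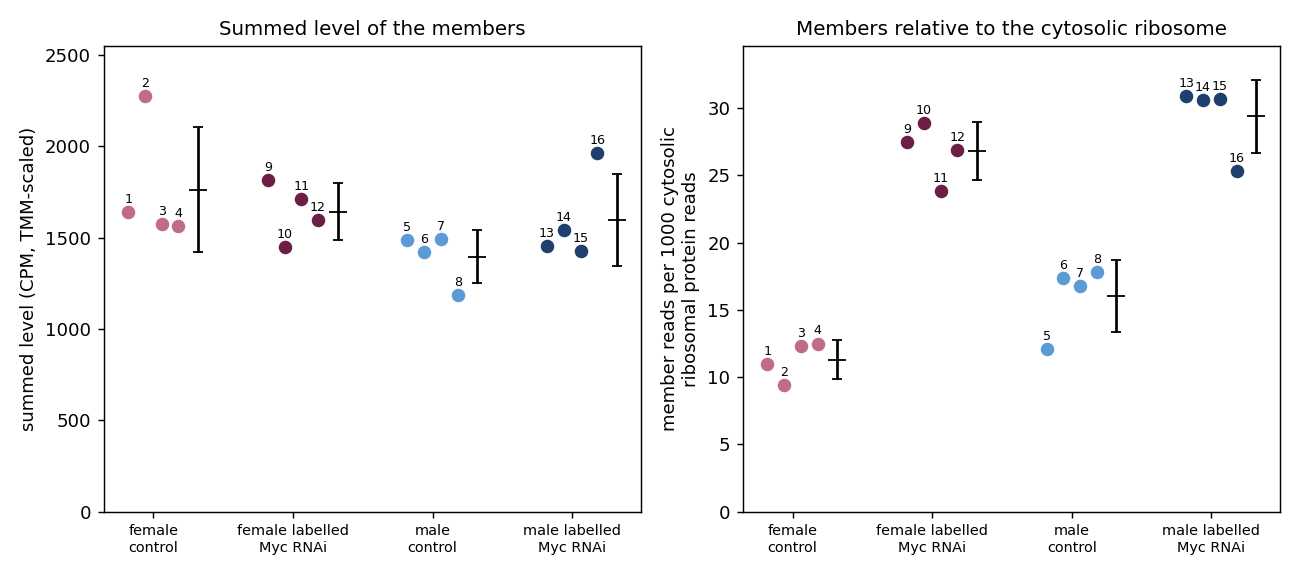
Left, summed level of the members in each library (TMM-scaled CPM); right, member reads per 1000 reads of cytosolic ribosomal protein genes. Points are libraries with their numbers, and bars show the mean ± SD of 4 libraries. On the left, library 2 (2276 CPM) stands above the other female controls; on the right, both control groups (9.41 to 17.8) lie below both groups labelled Myc RNAi (23.8 to 30.9).

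The other ribosome of the cell moved differently. The cytosolic ribosomal protein genes, which share no subunits with the mitochondrial ribosome, were lower in females labelled Myc RNAi in 81 of 85 tested genes (median log2 difference −1.33) and in males in 45 of 85 (median −0.68). Of all tested genes, 17.6% were lower in females and 17.7% in males. In males 1 cytosolic gene was higher. The highest male estimate was that of RpS5b (2.14), at 8.28 CPM in library 16 and at most 0.82 CPM in the other male libraries. With total-count scaling 77 and 4 of 85 were lower (medians −0.86 and −0.18). The share of all tested genes lower with that scaling is not given. Counted against those reads, a ratio that needs no scaling between libraries, the members gave 9.41 to 12.5 reads per 1000 in female controls and 23.8 to 28.9 in females labelled Myc RNAi. In males the values were 12.1 to 17.8 in controls and 25.3 to 30.9 in the other genotype. The genotypes did not overlap in either sex. The ratio shows unequal change of the 2 groups of genes and not which of them changed.

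As a share of all reads, the members took 0.141% to 0.159% in female controls and 0.177% to 0.217% in females labelled Myc RNAi. In males they took 0.104% to 0.129% in controls and 0.163% to 0.218% in the other genotype. On that scale most genes shifted: scaling by total counts moved the median of all tested genes from 0.00 to 0.43 in females and from 0.05 to 0.52 in males, and that of the members from −0.10 to 0.36 and from 0.23 to 0.72. In females the sign of the members' median therefore depended on the scaling, and on both scales it lay below the median of all genes.

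Females labelled Myc RNAi differed from control females in few members. A gene was called changed at a Benjamini-Hochberg adjusted p below 0.05 in edgeR's quasi-likelihood test, with the adjustment running over the whole table of 9314 tested genes. Of 72 members, 1 was higher and 2 were lower, against 36.1% of all tested genes changed (18.5% higher and 17.6% lower). With total-count scaling 28 members were higher and 0 lower, and 1 of the 3 calls was kept. The median of all tested genes also rose with that scaling, and their called share there is not given. The log2 difference was negative for 53 members and positive for 19, from −0.67 (mRpS10) to 0.46 (mRpS14, edgeR adjusted p = 0.149). For 68 members its 95% interval lay within −1 to 1, as it did for 56.6% of all tested genes. Without library 4, 0 members were higher and 6 lower; without library 16, 1 was higher and 4 lower; without library 2 or 10, 1 was higher and 1 lower. The median was 0.03 without library 2. Over all tested genes, the fits without 1 library called 2902 to 3725 changed. The stem cell and enteroblast markers were higher in the same comparison in 6 of 6 genes and the enterocyte markers in 4 of 6; their part in the result was not tested.

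mRpS31, a small-subunit protein specific to mitochondria (FBgn0036557, chromosome 3L, 16005193 to 16006599), had the lowest p in females. It stood at 38.7, 47.5, 33.8 and 35.9 CPM in the controls and at 27.8, 26.3, 26.5 and 31.4 CPM in females labelled Myc RNAi. Every control library was above every library labelled Myc RNAi, and mRpS31 fell by 0.48 on the log2 scale (SE 0.11, edgeR adjusted p = 0.0021). The fall passed in all 16 fits that left out 1 library each, but with total-count scaling it was −0.03 (edgeR adjusted p = 0.837). Male libraries of both genotypes held 23.8 to 26.9 CPM, and the male difference was −0.01 (95% interval −0.23 to 0.22).

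mRpS10, the counterpart of bacterial S10 in the head of the small subunit (FBgn0038307, chromosome 3R), was at 16.6, 28.4, 16.6 and 15.2 CPM in female controls and at 14.3, 10.8, 10.99 and 12.3 CPM in females labelled Myc RNAi. The groups did not overlap, and library 2 stood apart among the controls. mRpS10 fell by 0.67 (SE 0.21, edgeR adjusted p = 0.0177). The call was lost without library 2 or 10 and with total-count scaling (−0.19, edgeR adjusted p = 0.412).

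mRpL3, the counterpart of bacterial L3 in the core of the large subunit (FBgn0030686, chromosome X, 15761248 to 15762663), rose in both sexes. In females it went from 31.1, 34.2, 30.1 and 28.3 CPM in controls to 43.0, 37.1, 37.5 and 41.2 CPM. In males it went from 29.5, 33.0, 33.7 and 28.4 CPM in controls to 46.2, 43.7, 44.2 and 37.2 CPM. Neither sex had overlapping genotypes. The log2 difference was 0.36 in females (SE 0.10, edgeR adjusted p = 0.00997) and 0.46 in males (SE 0.10, edgeR adjusted p = 0.00163), and the difference between the sexes did not pass (interaction −0.10, 95% interval −0.40 to 0.20, edgeR adjusted p = 0.883). The female call was lost without library 4; the male call was kept in all 16 fits without 1 library.

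**Figure D2:**
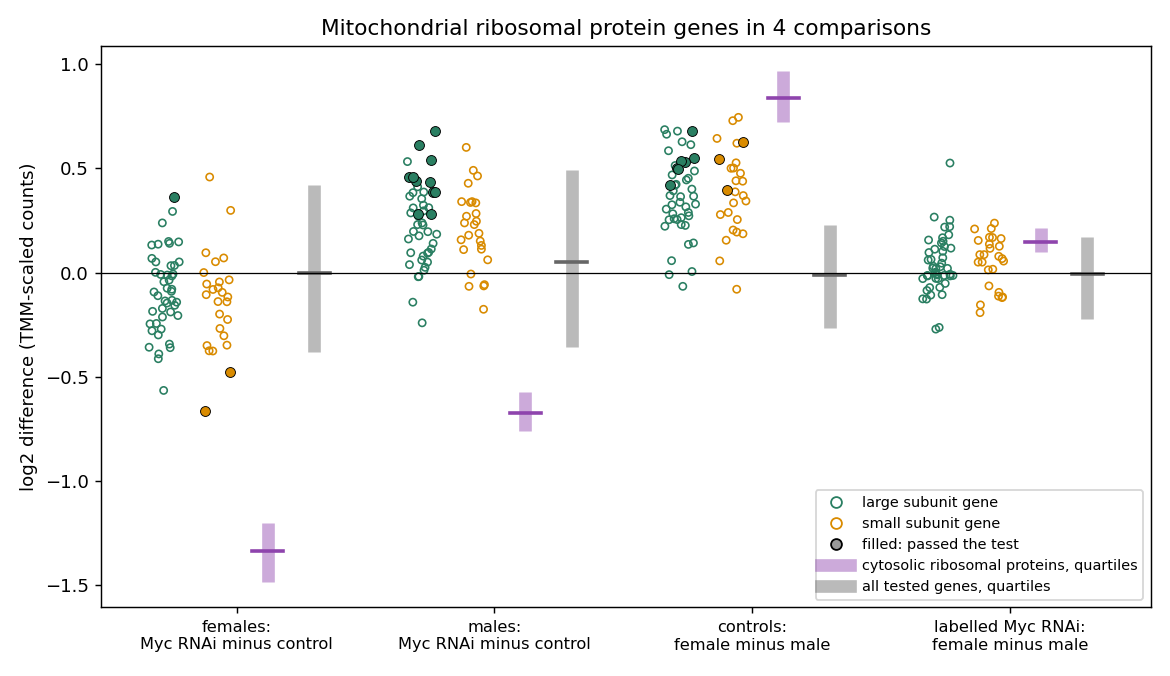
Log2 differences (vertical axis) of the 72 tested members in 4 comparisons (horizontal axis), by subunit; filled points passed the edgeR test. Bars span the quartiles and lines mark the medians of the cytosolic ribosomal protein genes and of all tested genes. The members' medians are −0.10, 0.23, 0.38 and 0.04 from left to right, beside −1.33, −0.68, 0.84 and 0.15 for the cytosolic genes.

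Males labelled Myc RNAi were higher than control males in 11 members and lower in 0, against 39.4% of all tested genes changed (21.7% higher and 17.7% lower). At an unadjusted p below 0.05, 14 members differed; DESeq2 and limma voom also called 11 and none lower. The median log2 difference was 0.23 (0.05 over all tested genes), with 63 members positive. The 95% interval lay within −1 to 1 for 63 members and for 55.0% of all tested genes. All 11 belong to the large subunit: mRpL1, mRpL3, mRpL12, mRpL14, mRpL19, mRpL24, mRpL39, mRpL44, mRpL47, mRpL48 and mRpL55. Of the 26 small-subunit members 0 passed, but the medians were close (0.25 for the large and 0.21 for the small subunit), and the difference between subunits was not tested.

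mRpL19, whose bacterial counterpart lies at the interface of the subunits (FBgn0037608, chromosome 3R, 8674109 to 8675196), was at 14.3, 14.6, 17.0 and 15.9 CPM in male controls and at 19.1, 20.5, 19.5 and 25.6 CPM in males labelled Myc RNAi. The groups did not overlap. The rise of mRpL19 was 0.46 (SE 0.13, edgeR adjusted p = 0.00814) and passed in all 16 fits without 1 library. In females mRpL19 was at 20.5 to 26.6 CPM in controls and at 18.9 to 25.1 CPM in the others, a difference of −0.02 (95% interval −0.28 to 0.25).

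mRpL48, a large-subunit protein specific to mitochondria, was at 11.5, 9.68, 10.02 and 7.40 CPM in male controls and at 14.5, 14.2, 12 and 17.98 CPM in males labelled Myc RNAi. The groups did not overlap, and mRpL48 rose by 0.61 (SE 0.19, edgeR adjusted p = 0.0159). mRpL24, whose bacterial counterpart acts early in assembly of the large subunit, went from 31.9 to 36.5 CPM in controls to 36.9 to 45.7 CPM, a log2 difference of 0.28 (SE 0.09, edgeR adjusted p = 0.0187). mRpL39 went from 14.3 to 19.8 CPM in controls to 19.8 to 30.8 CPM, with overlapping libraries and a log2 difference of 0.54 (SE 0.17, edgeR adjusted p = 0.0206). The highest estimate was that of mRpL55 (0.68, SE 0.26, edgeR adjusted p = 0.0463), which lost its call in 12 of the 16 fits without 1 library, and the lowest was that of mRpL35 (−0.24, edgeR adjusted p = 0.46).

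The male result rested on a few libraries. Without library 16, the one with testis reads, 5 members passed (mRpL1, mRpL3, mRpL12, mRpL19 and mRpS30) and the median fell to 0.07. Without control library 8, 2 members passed, mRpL3 and mRpL19, and the median was 0.16. Without control library 5, 4 passed. Over all tested genes, the fits without 1 library called 3183 to 3861 changed. With total-count scaling 66 members were higher and 0 lower. The median of all tested genes also rose with that scaling, and their called share there is not given. Other markers moved in the same comparison. Enterocyte markers were higher in 4 of 6 genes and stem cell and enteroblast markers in 3 of 6. The summed haemocyte markers (4 genes, 1 lower) went from 209 to 277 CPM in male controls to 119 to 153 CPM, and those of the Malpighian tubule (4 genes, 1 lower) from 74.96 to 145 CPM to 30.1 to 67.7 CPM; none of these genes was at 0 in either group. Their part in the result was not tested.

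**Figure D3:**
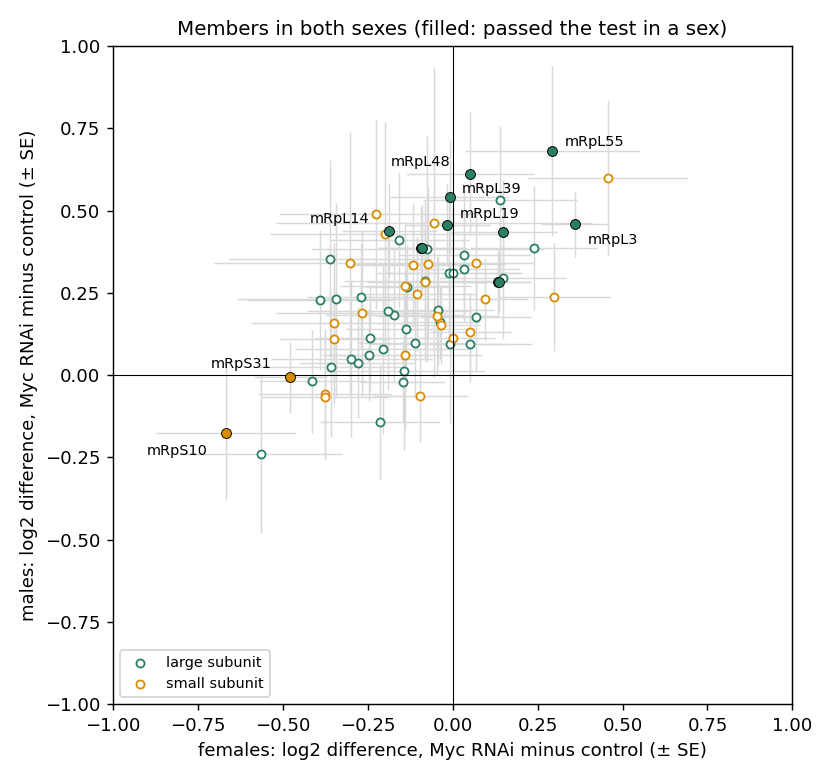
Log2 difference between genotypes in females (horizontal axis) and in males (vertical axis) for the 72 tested members, with standard errors in grey; filled points passed the test in females or in males, and 8 of them are named. mRpL3 lies to the upper right (0.36 and 0.46); mRpS31 (−0.48 and −0.01) and mRpS10 (−0.67 and −0.18) lie to the left of the other filled points.

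Among controls, 10 members were higher in females than in males and 0 were lower, against 10.3% of all tested genes changed (5.02% higher and 5.27% lower in females). The median log2 difference, female minus male, was 0.38 (−0.01 over all tested genes), and 69 members were positive. The libraries of the sexes did not overlap for 15 members, all higher in females; 7.24% of all tested genes had such a separation in that direction and 7.06% in the other. The 10 were mRpS31, mRpL12, mRpL19, mRpL47, mRpL48, mRpL14, mRpS26, mRpL46, mRpL15 and mRpS29. The cytosolic ribosomal protein genes were higher in females in 51 of 85 (median 0.84). Markers of other tissues moved with sex as well. The 8 fat body markers, which include yolk protein genes, summed to 93.3 to 274 CPM in female and 6.03 to 24.8 CPM in male controls, with 4 of 6 tested genes higher in females and Fbp1 at 0 in female controls. The 8 enteroendocrine markers, none at 0, summed to 422 to 522 and 552 to 798 CPM, with 3 lower in females. Haemocyte markers summed to 140 to 172 and 209 to 277 CPM, with 1 of 4 lower. Their part in the sex difference was not tested.

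mRpS31 had the lowest p, at 33.8 to 47.5 CPM in female controls and 23.8 to 26.9 CPM in male controls (log2 difference 0.62, SE 0.11, edgeR adjusted p = 0.00182). mRpL12 was at 45.7, 62.2, 44.4 and 46.8 CPM in female controls and at 31.8, 38.3, 37.6 and 28.4 CPM in male controls. The sexes did not overlap for mRpL12 (0.55, SE 0.13, edgeR adjusted p = 0.0116). mRpL19 was 0.54 higher in females (SE 0.13, edgeR adjusted p = 0.0134). These 3 passed in all 16 fits without 1 library.

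mRpL47, the counterpart of bacterial L29, was at 21.1 to 27.99 CPM in female and 14.3 to 18.8 CPM in male controls (0.50, SE 0.13, edgeR adjusted p = 0.0237). mRpL48 was at 12.7 to 18.4 CPM in female and 7.40 to 11.5 CPM in male controls (0.68, SE 0.19, edgeR adjusted p = 0.0312). The highest estimate, that of mRpS28 (0.74), did not pass (edgeR adjusted p = 0.0649), and the lowest was that of mRpS5 (−0.08, edgeR adjusted p = 0.755). mRpS5 is the counterpart of a bacterial protein involved in decoding accuracy.

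The sex difference also depended on libraries. Without female control 2 the median was 0.17 and 3 members passed; without male control 8 it was 0.29 and 3 passed. Without library 6, 4 passed, without library 1 or 12, 6 passed, and without library 4 or 16, 16 passed. The calls over all tested genes also varied, from 574 to 1292 in the fits without 1 library. Whether the members depended on libraries more than other genes was not tested. In a fit of the control libraries alone 3 passed, and without the filter on low counts 4. The female controls enter both this comparison and the one between female genotypes, so the high mRpS31 of female controls counts in both. Likewise, the male controls enter both this comparison and the one between male genotypes, so their low values count in both: mRpL48 was 0.68 higher in control females and 0.61 higher in males labelled Myc RNAi, mRpL19 0.54 and 0.46, and mRpL12 0.55 and 0.39.

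The 11 X-linked members had a median female minus male difference of 0.22 among controls, and the 61 tested autosomal members 0.40. Their quartiles overlapped (0.08 to 0.39 and 0.28 to 0.51). Of the members, 21 lie on 3R, 17 on 3L, 12 on 2L and 12 on 2R. Members numbered in the bacterial series (42) had a median of 0.37 and the 30 tested ones with higher numbers 0.42. The differences by chromosome and by number were not tested.

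**Figure D4:**
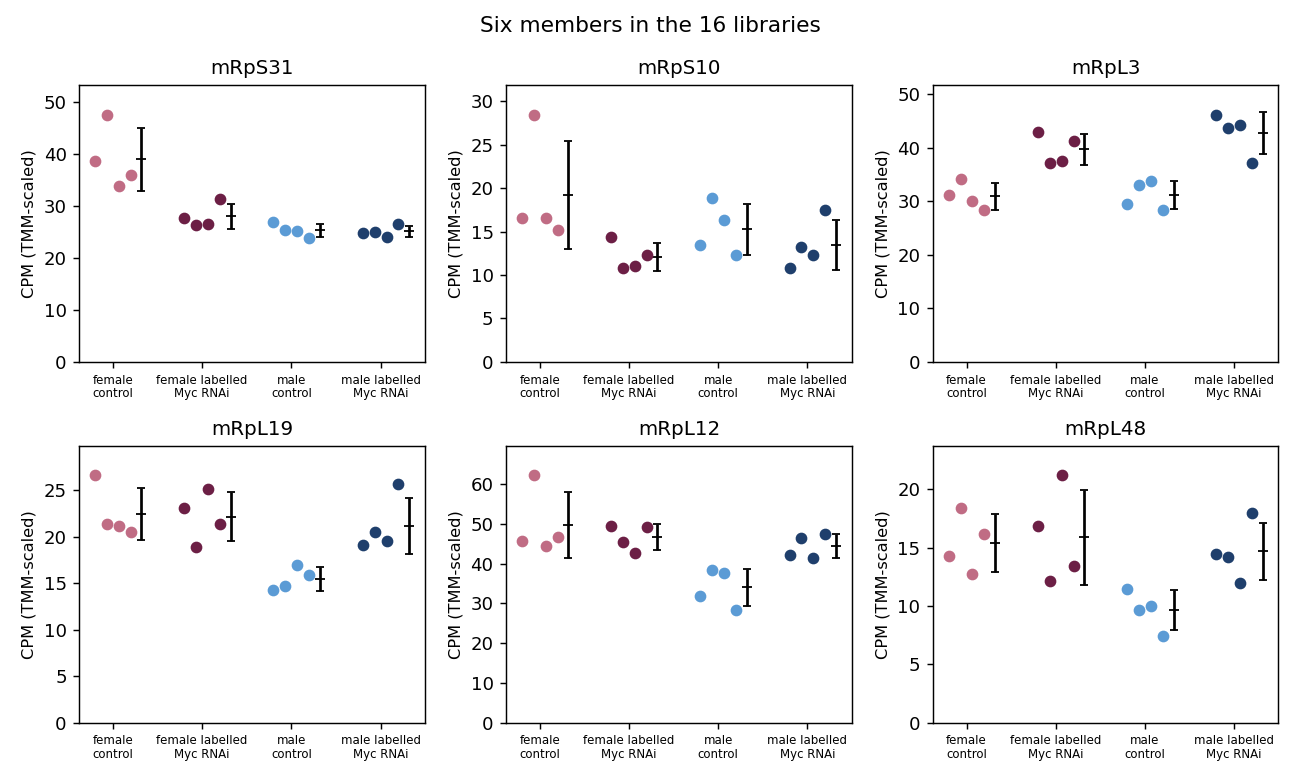
TMM-scaled CPM (vertical axis, from 0) of 6 members in each library of the 4 groups (horizontal axis); bars show the mean ± SD of 4 libraries. mRpS31 is high in female controls alone (33.8 to 47.5 CPM), mRpL3 is high in both groups labelled Myc RNAi (37.1 to 46.2 CPM), and mRpL19, mRpL12 and mRpL48 are lowest in male controls.

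Between females and males labelled Myc RNAi, 0 members differed, against 5.56% of all tested genes. At an unadjusted p below 0.05, 3 members differed by edgeR, and DESeq2 and limma voom called 0. The median was 0.04, and for 70 members the 95% interval of the difference lay within −1 to 1 (72.8% of all tested genes). The estimates ran from −0.27 (mRpL16, edgeR adjusted p = 0.461) to 0.53 (mRpL33, edgeR adjusted p = 0.239). mRpL33 was at 15.4, 10.7, 13.2 and 9.21 CPM in females and at 7.14, 6.97, 6.78 and 12.6 CPM in males, where library 16 was the high one. Without library 16 it passed.

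The effect of genotype was compared between the sexes as an interaction, the female minus the male log2 difference. Of 72 members 0 passed, against 1.07% of all tested genes; 9 had an unadjusted p below 0.05, and DESeq2 and limma voom called 0. The interaction was negative for 71 members, with a median of −0.34 (−0.03 over all tested genes and −0.69 over the cytosolic ribosomal protein genes). The lowest p values belonged to mRpL14 (−0.62, 95% interval −1.05 to −0.20, edgeR adjusted p = 0.181) and mRpS31 (−0.47, 95% interval −0.79 to −0.15, edgeR adjusted p = 0.182). The estimates ran from −0.71 (mRpS16, edgeR adjusted p = 0.532) to 0.06 (mRpS35, edgeR adjusted p = 0.961). The median was −0.14 without female control 2 and −0.16 without library 16.

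Members rose and fell together from library to library. Over the 16 libraries, the Pearson correlation of a member with the mean of the other members had a median of 0.824. It was lowest for mRpS5 (−0.556), mRpL3 (0.145) and mRpL1 (0.154). The libraries share groups, depth and scaling, so these values are a description. The tested genes outside the rule whose log2 CPM was most like the mean of the members were sun (r = 0.961), tko (0.957), mtacp1 (0.955), CG7488 (0.953) and CG3214 (0.953). tko encodes a small-subunit protein of the mitochondrial ribosome that the symbol rule does not catch, and mtacp1 the acyl carrier protein of respiratory complex I.

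The members are short transcripts, with a median exon length of 783 bases against 2062.5 for all tested genes, and short transcripts as a class differed between libraries. The median centred log2 level of the 1401 tested other genes with exons below 1000 bases was 0.22 in library 2, −0.21 in library 8 and 0.37 in library 16; for the members it was 0.61, −0.45 and 0.38. Over the 16 libraries the 2 means had a Pearson correlation of 0.767. The other short genes had median differences of −0.05 in females, 0.09 in males, 0.10 between control sexes and −0.12 for the interaction. After a trend on exon length was removed from each library, a step chosen after seeing the data, the members' medians were −0.05, 0.23, 0.34 and −0.28. In that fit 3 members were higher and 6 lower in females, 22 were higher in males, 25 were higher in control females and 0 passed the interaction. The shares of all tested genes called in that fit are not given, so these counts are not set against them. The part of transcript length in the results was not tested further.

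**Figure D5:**
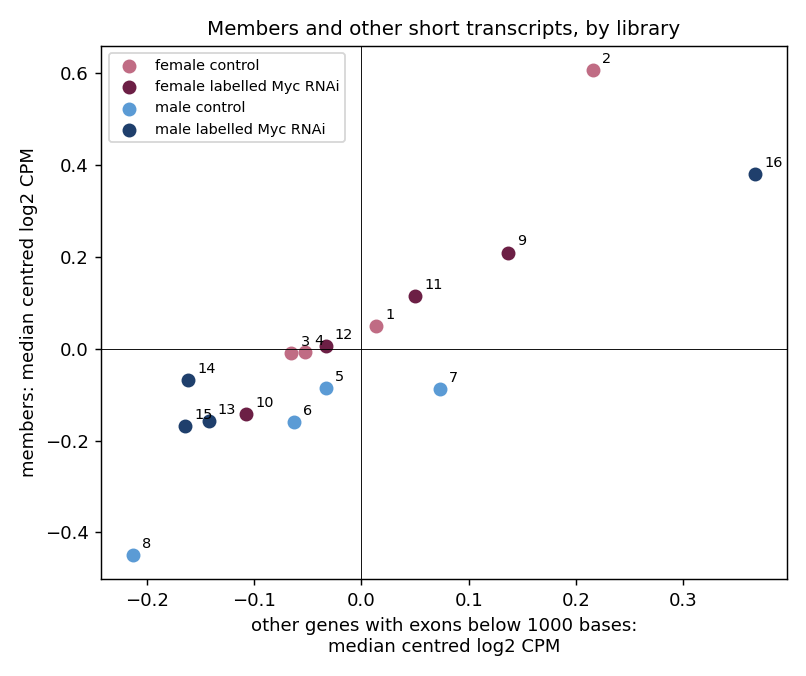
Median centred log2 CPM of the 1401 other tested genes with exons below 1000 bases (horizontal axis) and of the members (vertical axis), 1 point per library with its number, coloured by group. Libraries 2 and 16 are high on both axes and library 8 is low on both.

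Genes of mitochondrial ribosomal proteins outside the symbol rule included tko and bonsai. tko was at 27.9 to 59.9 CPM in female controls and 15.4 to 28.7 CPM in male controls, and none of its differences passed (−0.10 in females, 0.46 in males, 0.70 between control sexes). bonsai, the counterpart of bacterial S15, rose in males (0.34, edgeR adjusted p = 0.0338), a call kept in 9 of the 16 fits without 1 library and lost without library 16.

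Other genes for mitochondrial translation were also read. Of 20 tested mitochondrial tRNA synthetases and related enzymes, 4 were higher and 2 lower in females, and 5 higher and 2 lower in males. These shares, 30.0% and 35.0%, lie below the 36.1% and 39.4% of all tested genes. Slimp, an insect relative of mitochondrial seryl-tRNA synthetase, was at 9.84 to 13.2 CPM in female controls and 29.4 to 33.7 CPM in females labelled Myc RNAi, and at 11.6 to 14.6 and 36.2 to 43.5 CPM in males. The genotypes were separate in both sexes, and Slimp rose by 1.45 and 1.54 (edgeR adjusted p = 3.41e-07 and 5.58e-08). Aats-thr, the threonyl-tRNA synthetase, rose by 0.75 and 0.81, CG4573 (GluRS-m) by 0.64 and 0.41, and CG10092 (ArgRS-m) by 0.64 and 0.57 in females and males. The current symbol of Aats-thr, ThrRS, lacks the mitochondrial mark -m of the other 2. Whether its rise concerns mitochondrial or cytosolic translation was not tested. gatA, a subunit of the amidotransferase that completes glutaminyl-tRNA, fell by 0.52 in females and 0.41 in males, a fall not found with total-count scaling.

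Of 7 mitochondrial translation factors, 1 (14.3%) was higher in females and 3 (42.9%) in males, and 0 were lower. Of all tested genes, 36.1% and 39.4% changed, with 18.5% and 21.7% higher. EF-G2, listed as mRRF2 in the current annotation and a factor in ribosome recycling, was at 7.29 to 9.18 CPM in female controls and 15.6 to 19.2 CPM in females labelled Myc RNAi. In males it was at 7.44 to 8.43 and 19.8 to 22.2 CPM. It rose by 1.08 and 1.40 (edgeR adjusted p = 2.42e-06 and 7.46e-08). The elongation factor CG6412 (mEFTs) rose by 0.41 and the membrane insertase CG6404 (OXA1L) by 0.40 in males; both calls were lost without library 5, 8 or 16 and in the compared groups alone. EfTuM was 0.43 and CG6404 0.44 higher in control females than in control males, in 11 and 5 of the 16 fits without 1 library. On the total-count scale EfTuM missed the threshold (edgeR adjusted p = 0.0582), and neither gene passed in the compared groups alone.

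Of 9 tested genes for the transcription and upkeep of mitochondrial DNA, 2 were lower and 0 higher in each sex. This share, 22.2%, lies below the 36.1% and 39.4% of all tested genes changed in females and males. The median of the list was 0.01 in both sexes, with 5 genes positive in each. mtRNApol, the mitochondrial RNA polymerase, was at 38.4 to 45.9 CPM in female controls and 17.97 to 22.4 CPM in females labelled Myc RNAi, and at 24.7 to 29.9 and 15.2 to 23.5 CPM in males. It fell by 1.07 in females (edgeR adjusted p = 9.5e-06) and 0.49 in males (edgeR adjusted p = 0.0055), and was 0.63 higher in control females than control males. mtDNA-helicase fell by 1.01 and 0.64. With total-count scaling neither male fall passed (−0.01 for mtRNApol and −0.16 for mtDNA-helicase). Neither TFAM, which packages mitochondrial DNA, nor mtTFB2 passed in either sex (0.01 and 0.31 for TFAM, 0.10 and 0.25 for mtTFB2).

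Regulators of nuclear genes for mitochondria were 3 lower and 0 higher of 10 in females and 2 lower and 0 higher in males, with mtRNApol counted again in both (3 of 10 and 2 of 10 changed, below the share of all tested genes). srl, the fly counterpart of the PGC-1 coactivators, was at 15.7, 27.0, 27.9 and 14.6 CPM in female controls and at 13.5, 11.2, 12.5 and 11.6 CPM in females labelled Myc RNAi. It fell by 0.81 (edgeR adjusted p = 0.00676; −0.34, edgeR adjusted p = 0.195, with total-count scaling), had a male difference of 0.20 (edgeR adjusted p = 0.498), and was 0.85 higher in control females than control males. ERR, a nuclear receptor of energy metabolism, fell by 0.98 in females and 1.51 in males. ewg and Ets97D, fly counterparts of nuclear respiratory factors, did not pass in either sex (−0.14 and −0.03 for ewg, −0.06 and 0.15 for Ets97D).

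Nuclear genes for the respiratory chain and the ATP synthase were read by complex. Of all tested genes, 36.1% changed in females and 39.4% in males. In females 2 of 4 genes of complex II, which has no subunit encoded by mitochondrial DNA, were lower (median −0.17), 0 of 32 complex I genes passed (median −0.23), 3 of 9 complex III genes were lower (median −0.31), 1 of 9 complex IV genes was lower (median −0.27) and 1 of 11 ATP synthase genes was lower (median −0.24). In males 0 of 4 complex II genes passed (median −0.08), and 1 of 32 complex I genes was higher (median −0.04). For complex III 1 of 9 genes was lower in males (median −0.11). For complex IV 1 of 9 was higher and 1 lower (median −0.01). Of 11 ATP synthase genes 0 passed in males (median −0.04). CoVa, a subunit of complex IV, fell in both sexes, by 0.94 in females and 0.83 in males, from 505 to 698 CPM in female controls to 256 to 325 CPM. CG43206 (UQCR-6.4L) fell by 3.81 and 2.28, but at low levels, with 3 reads in its lowest library. Its mean was 2.34 CPM in female and 3.16 CPM in male controls, and 0.17 and 0.61 CPM in the groups labelled Myc RNAi. In fits without 1 library the male estimate ran from −3.81 to −1.98. In females SdhA, SdhC, CG4769 (Cyt-c1), CG30354 (UQCR-11L) and ATPsyn-beta fell by 0.36, 0.58, 0.31, 1.40 and 0.42. None of these 5 female falls passed with total-count scaling, where SdhA (0.09), CG4769 (0.14) and ATPsyn-beta (0.04) were positive. The male rises of CG11423 (3.03), CG44296 (2.78) and, in the import list, Tim13 (3.32) came with high values in library 16 (15.1, 9.64 and 5.06 CPM, against at most 1.44, 0.84 and 0.27 CPM in the other male libraries). The CG11423 call was kept in all 16 fits without 1 library, with estimates from 0.89 to 3.37, but was lost with limma voom. The CG44296 call was kept in 12 of these fits and lost without library 16.

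Among 19 tested import and folding genes, 5 were lower in females and 3 higher and 2 lower in males, or 26.3% in each sex. This share lies below the 36.1% and 39.4% of all tested genes changed in females and males. The import receptors Tom70 and Tom20 rose by 0.63 and 0.54 in males. Tom40, the pore of the outer membrane, fell by 0.37 in females, as did the chaperone Trap1 by 0.45 and the import receptor mge by 0.66, and Opa1 fell by 0.55 in females and 0.54 in males. With total-count scaling none of these 4 falls passed, and Tom40 was at 0.08 in females. Of the list for mitochondrial ribosome assembly and RNA processing, bsf fell by 0.41 in females (0.02, not passing, with total-count scaling) and CG15896 rose by 0.33 in males, 1 of 8 in each sex (12.5%). The CG15896 call (edgeR adjusted p = 0.0375) was kept in 10 of the 16 fits without 1 library. It was lost with RLE scaling, without the filter and in the compared groups alone. A search for messages encoded by mitochondrial DNA, by symbols starting with mt:, matched 0 genes, so none were analysed. Whether such messages are listed under other symbols was not checked.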

How the data were processed

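The authors deposited raw counts, whole numbers of reads for each gene, in a single table. Per the labels' protocols, libraries were directional and made from poly(A) RNA. Per the submitters' processing notes, TopHat2 2.0.11, featureCounts and the dm6 build were used; the annotation, the strand setting and the handling of shared reads are not given in these sources. Values of overlapping genes are therefore uncertain. Groups came from sample titles, and nothing pairs libraries across groups. Sampling noise was exceeded in all 24 pairs of replicates (chi-square 24.2 to 305.9 per degree of freedom).

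Genes were filtered with filterByExpr (9314 kept) and scaled by TMM, and the edgeR 4.0.16 quasi-likelihood test (R 4.3.3) was run on all 16 libraries together, each group with its own mean. P-values were adjusted over all tested genes and measure the spread between pools of guts. Differences are log2, and levels are TMM-scaled CPM. Exon lengths and positions (1-based) came from the Ensembl annotation of BDGP6, the same assembly as dm6; 12504 symbols matched directly, 3992 through a synonym and 184 not. Alternatives were RLE and total-count scaling, no filter, a filter of 1 CPM in 4 libraries, DESeq2 1.42.0, limma 3.58.1 voom, the compared groups alone, each library left out and, added later, a length trend removed. The scripts were tested on simulated counts.

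The members, the 14 gene lists and the tests were chosen with earlier results of these data known. Named members were, per comparison, up to 5 changed per direction with the lowest p, the highest and lowest estimates and, for levels, the 3 highest and 3 lowest; of other lists, up to 4 changed genes; and tko, bonsai, the targeted gene and 7 regulators by name, of which mtTFB1 was not tested. Members not in this rule were named where a count was spelled out. The planned search for promoter motifs was not run.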

Additional observations from a re-analysis of the deposited data

Results flagged for a closer look

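Part of the members named above, tko and the summed level were checked in each of the 4 groups. Other named members, such as mRpS9, were not flagged by this check and may not have been in it. In the resulting 108 groups of 4 libraries, the highest or lowest library was compared with the others by Dixon's ratio. Of these 21 passed its 95% critical value, which chance passes in about 1 in 20 independent groups. These groups share the same libraries and the members rose and fell together, so they are not independent. The count of flags is a description and was not compared with chance. Most involved female control library 2 or male library 16.

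Library 2 was the highest female control for mRpL12 (62.2 CPM), mRpL16 (36), mRpL33 (18.8), mRpL35 (57.0), mRpL55 (12.8), mRpS10 (28.4), mRpS16 (35.2), mRpS21 (9.80), mRpS24 (5.65), tko (59.9) and the summed level (2276 CPM). It was the lowest female control for mRpL24 (39.9 CPM) and mRpS5 (25.5 CPM). Library 16 was the highest male library labelled Myc RNAi for mRpL16 (34.4 CPM), mRpL33 (12.6), mRpL35 (34.0), mRpS21 (8.69) and mRpS28 (18.5). The other flags were library 1 for mRpL19 (26.6 CPM, highest female control), library 9 for mRpL39 (29.2 CPM, highest) and library 11 for mRpS5 (24.9 CPM, lowest) among females labelled Myc RNAi.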

How the results depend on the processing

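No paired analysis was possible because the groups share no replicate numbers. Total-count scaling moved most results between genotypes: 28 members were then higher and 0 lower in females (median 0.36), 66 higher in males (median 0.72) and 16 higher in control females, and the summed level was 1941 CPM in females labelled Myc RNAi and 1161 CPM in control males. It also turned the sign of bsf (0.019), Tom40 (0.080), SdhA (0.088), CG4769 (0.138) and ATPsyn-beta (0.041) in females and of ewg (0.45, edgeR adjusted p = 0.0464) and gatA (0.074) in males. With the length trend removed, 3 members were higher and 6 lower in females, 22 higher in males, 25 higher in control females and 1 higher in females labelled Myc RNAi. The member counts under total-count scaling and with the length trend removed are given without the shares of all tested genes under those settings. Among controls, 3 members passed in the compared groups alone (538 genes) and 4 without the filter. Between the sexes labelled Myc RNAi, DESeq2 called 793 genes and the fit without the filter 293. For the interaction the counts were 243 with DESeq2, 158 with the length trend removed, 59 without the filter and 57 with total-count scaling.

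With 1 library left out at a time, the female comparison called 2902 to 3725 genes, 0 to 1 member higher and 1 to 6 lower, with medians from −0.22 to 0.03. The male comparison called 3183 to 3861 genes, 2 to 11 members higher and 0 lower, with medians from 0.07 to 0.30. Control sexes differed in 574 to 1292 genes and 3 to 16 members (medians 0.17 to 0.49), and the sexes labelled Myc RNAi in 247 to 590 genes and 0 to 1 member (medians −0.02 to 0.20). The interaction called 36 to 131 genes and 0 members (medians −0.45 to −0.14). The lowest member count in any library was 37 reads, and the standard errors of the members ran from 0.09 to 0.47 in females.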
